A study of Rattus norvegicus with 18 samples.

Results

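Baseline gene expression was described in DMSO-treated rat hepatocytes, the solvent controls of a study of 4 p-dialkoxy chlorobenzenes named DDMB, DDEB, CDMB and CDEB. The 6 DMSO samples were taken out of the 18 samples of the series by their titles, VC_2_1 to VC_2_3 and VC_1_1 to VC_1_3. Both groups were cryopreserved primary hepatocytes of male Sprague Dawley (SD) rats, precultured for 24 h and then kept with DMSO for 24 h, which makes 48 h in culture. VC_2 is the control of DDEB and VC_1 is the control of DDMB, CDMB and CDEB, because the microarray chips came from different lots and the study normalized each lot apart. The cells carry no named genetic change, and the labels do not give the age or number of the animals. The design text calls the 3 samples of a group independent experiments. It does not say whether the arrays with the same number on VC_2 and VC_1 came from one culture, and p-values therefore cover only the array-to-array spread, which may be partly technical. The 3 VC_2 arrays lay on 1 slide and the 3 VC_1 arrays on another, so for these 6 arrays lot, slide and culture set cannot be told apart.

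Hepatocytes make most of the proteins of blood plasma, form bile, run the urea cycle and gluconeogenesis, and clear drugs through cytochrome P450 enzymes, conjugating enzymes and transporters. Taken out of the liver and plated, they are known to lose part of this programme over days and to switch on cytoskeletal and growth genes. Cells prepared from whole liver can carry along macrophages, endothelial cells, stellate cells, bile duct cells and blood cells, whose genes are therefore given below beside those of the hepatocyte. In bulk RNA, fewer cells of a type and less RNA per cell cannot be told apart.

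Expression was read on one-colour Agilent arrays from 100 ng of total RNA a sample, and a level below is the relative signal, that is the processed Cy3 intensity of a spot over the 75th percentile of its array. The brightness of a spot also depends on its probe, so an order of genes is an order of brightness and not of transcript number. A gene was called detected on a lot when at least 1 of its probes lay well above background on all 3 arrays, and not detected when none of its probes did on any array. Of 16076 genes with a plain symbol, 10172 were detected on both lots (63.3%) and 4508 on no array (28.0%). Detection on one lot beside no detection on the other was rare, with 52 genes seen on VC_2 alone and 71 on VC_1 alone, and the remaining 1273 genes passed on some arrays of a lot only. On the log2 scale the arrays agreed closely across 19561 detected genes and accessions, with Pearson r between 0.980 and 0.998 for the 15 pairs and Spearman's rho of at least 0.978 (across genes, which are not independent replicates). Of these genes 87.2% had lot means within 0.5 of each other on the log2 scale, and 96.4% within 1.

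The 3 marker genes of the hepatocyte were bright on both lots. Alb, the most abundant plasma protein, gave relative signals of 491, 487 and 347 on VC_2 and of 438, 422 and 330 on VC_1. Ttr, the thyroid hormone carrier transthyretin, gave 815, 817 and 681 on VC_2, against 511, 468 and 399 on VC_1. Apoa1, the main protein of high-density lipoprotein, gave 340, 337 and 256 on VC_2 and 304, 291 and 227 on VC_1. The lots overlapped for Alb and Apoa1 and were apart for Ttr, and replicate 3 was the lowest array of its lot for all of them. The difference VC_2 minus VC_1 was 0.75 ± 0.13 for Ttr (log2, SE, n = 3 arrays a lot; limma adjusted p = 0.0141), 0.15 ± 0.18 for Alb (adjusted p = 0.665) and 0.18 ± 0.17 for Apoa1 (adjusted p = 0.532). With the replicate number as a block, the adjusted p was 0.0473 for Alb and 0.0125 for Apoa1. Under quantile normalization both differences had the opposite sign, -0.18 for Alb and -0.07 for Apoa1. With quantile normalization and the block, the adjusted p of these reversed differences was 0.0372 for Alb and 0.118 for Apoa1. For Ttr, quantile normalization left a smaller difference of 0.25 (adjusted p = 0.0366), so its size depended on the scaling. Leaving out VC_1 replicate 2, VC_2 replicate 1 or VC_2 replicate 2 brought the adjusted p of Ttr to 0.0596, 0.0604 and 0.0639. The other Alb probe gave mean relative signals of 465 on VC_2 and 236 on VC_1, so a 1.97-fold gap stood on that probe beside a 1.11-fold gap on the first.

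Promoters of liver genes are shown because they carry the short motifs through which hepatocyte factors are known to act. The sequences run 5′ to 3′ from 250 bases before to 50 bases after the start of the gene (RefSeq, build GRCr8), and belong to Alb, to the acute phase gene Orm1 and to Cyp2c11, the male-specific P450. Capitals mark TATAAA, the TATA box core, and GTTAAT, a part of the palindrome bound by HNF1.
Alb (chr14:17906930-17907229, minus strand): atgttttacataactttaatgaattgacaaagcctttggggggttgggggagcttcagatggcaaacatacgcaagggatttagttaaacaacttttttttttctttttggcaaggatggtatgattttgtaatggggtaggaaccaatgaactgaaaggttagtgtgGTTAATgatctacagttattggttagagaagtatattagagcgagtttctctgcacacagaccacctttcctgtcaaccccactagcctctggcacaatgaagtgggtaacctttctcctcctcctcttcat
Orm1 (chr5:81788259-81788558, plus strand): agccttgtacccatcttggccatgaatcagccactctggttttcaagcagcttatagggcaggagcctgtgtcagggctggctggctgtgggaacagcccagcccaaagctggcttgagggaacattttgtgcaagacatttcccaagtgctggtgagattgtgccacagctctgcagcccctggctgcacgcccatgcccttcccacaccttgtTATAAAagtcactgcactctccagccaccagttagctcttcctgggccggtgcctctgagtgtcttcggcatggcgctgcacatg
Cyp2c11 (chr1:246174966-246175265, plus strand): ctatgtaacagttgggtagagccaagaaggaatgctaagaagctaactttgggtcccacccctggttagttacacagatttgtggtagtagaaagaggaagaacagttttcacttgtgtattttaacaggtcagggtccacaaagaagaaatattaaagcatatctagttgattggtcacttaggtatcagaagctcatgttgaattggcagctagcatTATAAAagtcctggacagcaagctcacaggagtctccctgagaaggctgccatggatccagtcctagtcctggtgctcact
Each motif was searched on both strands, without regard to overlap. GTTAAT stood in 14 of 57 promoters of detected plasma protein genes (24.6%), in 4 of 43 of detected P450 genes (9.30%), in 3 of 59 of ribosomal protein genes (5.08%) and in 7.37% of all 27457 promoters. TATAAA stood in 16 of 43 P450 promoters (37.2%), 11 of 57 plasma protein promoters (19.3%), 6 of 59 ribosomal protein promoters (10.2%) and 14.3% of all promoters. Among genes detected on both lots TATAAA stood in 7.64% of 8406 promoters, against 21.7% of the 3600 promoters of genes detected on no array. For the CCAAT box these shares were 38.8% and 37.3%. A match describes letters in this window and shows no binding.

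The brightest genes were ribosomal protein genes and genes of secreted liver proteins on both lots. Rpl41, a protein of the large ribosomal subunit, ranked first on each, with 1098, 1079 and 957 on VC_2 and 960, 936 and 800 on VC_1. Orm1, which encodes the plasma protein alpha-1-acid glycoprotein, ranked 4 on VC_2 with 788, 751 and 725, and 2 on VC_1 with 690, 632 and 583. Of the 20 brightest genes of each lot 14 were shared, of the 100 brightest 91, and of the 500 brightest 478. The 100 brightest held 41 cytosolic ribosomal protein genes on VC_2 and 39 on VC_1, and 16 plasma protein genes on VC_2 and 18 on VC_1.

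Beside Rpl41 and Orm1, these shared genes included Ttr, Tf (the iron carrier transferrin), Hp (haptoglobin, which binds free haemoglobin), Apoa4 and Apoe of the lipoproteins, and the light ferritin chain gene Ftl1. They also included Krt18, a keratin of simple epithelia, Obp3, a lipocalin gene, and Rps20, Rpl24 and Rps10 of the ribosome. Ftl1 ranked 2 on VC_2 and 11 on VC_1, and its relative signal averaged 826 ± 66.8 on VC_2 and 474 ± 62.0 on VC_1 (SD, n = 3 each; difference 0.81 ± 0.12, log2, SE, adjusted p = 0.0106). Krt18 averaged 745 ± 60.2 on VC_2 and 466 ± 51.0 on VC_1, and Tf averaged 717 ± 92.3 on VC_2 and 467 ± 45.4 on VC_1, both past the threshold. The 6 genes of the VC_2 list outside the VC_1 list were Rplp0, Rps12, Actg1, Ppia, Rplp1 and Rpl37a. The 6 genes of the VC_1 list outside the VC_2 list were Apoc3, RT1-A1 (a class I histocompatibility gene), Rplp2, Rps21, Rps19 and Rps18. Actg1, a cytoplasmic actin, ranked 12 on VC_2 and 88 on VC_1, with 658, 666 and 594 on VC_2 against 311, 306 and 244 on VC_1.

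**Figure D1:**
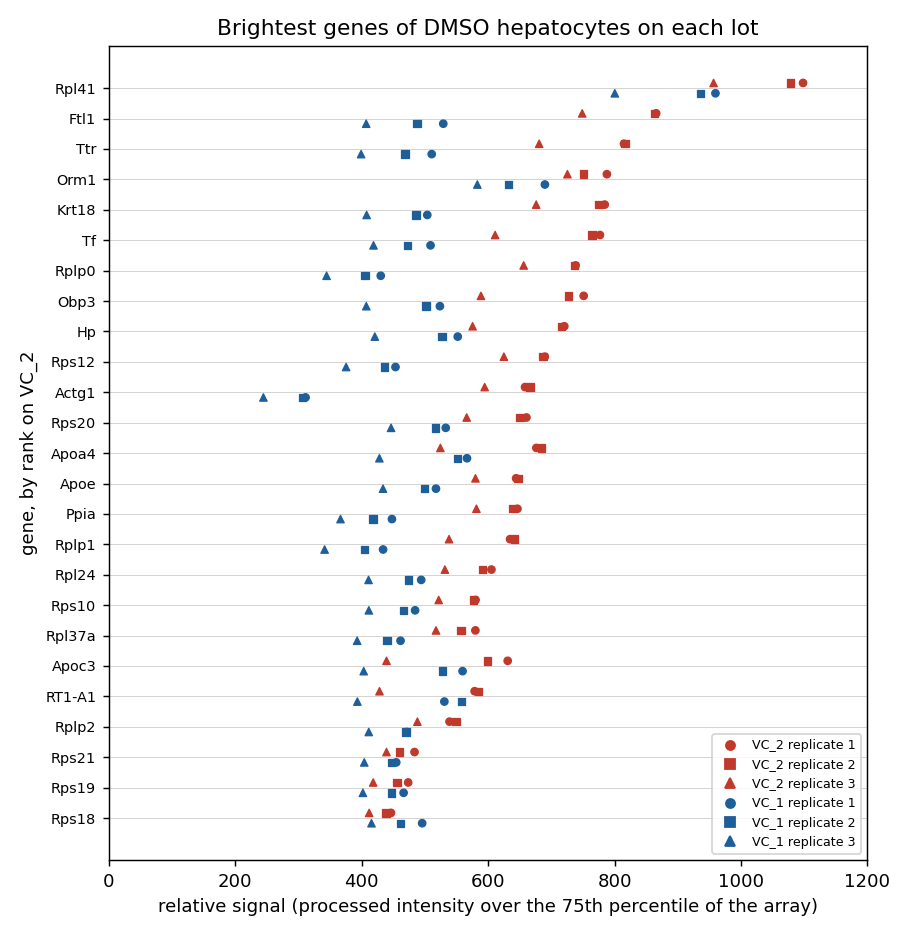
Relative signal (x axis, linear) of 25 genes among the 20 brightest of either lot, ordered from the top by rank on VC_2, with 1 marker for each array and VC_2 drawn above VC_1. Rpl41 is brightest on both lots (957 to 1098 on VC_2, 800 to 960 on VC_1), and the lots stand apart most for Actg1.

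Secreted plasma proteins were nearly all present on both lots. All 14 measured carrier proteins, 17 of 17 apolipoprotein and lipoprotein genes, 18 of 18 coagulation genes, 18 of 19 complement genes and 16 of 17 acute phase genes were detected on both lots. The exceptions were Cfd, complement factor D, and Lrg1, each on no array. The bright members included Rbp4, the retinol carrier (482 ± 96.9 on VC_2 and 305 ± 40.2 on VC_1) the lipoprotein gene Apoc3 (556 ± 103 on VC_2 and 497 ± 82.6 on VC_1), the kininogen gene Kng1 (529 ± 102 on VC_2 and 426 ± 88.0 on VC_1), prothrombin F2 (342 ± 83.5 on VC_2 and 323 ± 68.6 on VC_1) and the fibrinogen chain Fgb (238 ± 49.5 on VC_2 and 239 ± 55.2 on VC_1; SD, n = 3 each). C3, the hub of the complement cascade, gave 154, 156 and 121 on VC_2 and 155, 160 and 115 on VC_1. The dimmest coagulation gene was Pros1, the anticoagulant protein S, with 0.453 ± 0.00851 on VC_2 and 0.443 ± 0.0458 on VC_1. The median over the carrier list was 261, 250 and 213 on VC_2 and 240, 231 and 190 on VC_1, against 1.93, 1.94 and 1.96 on VC_2 and 2.00, 2.03 and 2.03 on VC_1 over all genes with a plain symbol detected on both lots. Across all 21173 genes and accessions tested, 17.2% differed between the lots at an adjusted p below 0.05 (limma), and with the replicate block 51.5% did. List members all have a plain symbol. Of the 10667 tested genes with one, 13.8% passed (775 higher and 700 lower on VC_2), and 5540 passed with the block. Among the carriers 4 of 14 passed, all higher on VC_2 (Ttr, Tf, Gc and Selenop), and 12 with the block. None of the 17, 18, 18 and 16 tested members of the lipoprotein, coagulation, complement and acute phase lists passed, and 13, 7, 8 and 9 did with the block.

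Of the 69 measured cytochrome P450 genes, 53 were detected on both lots, 12 on no array and 4 on some arrays. The brightest was Cyp3a23-3a1, the rat enzyme known for its induction through the pregnane X receptor, with 149, 138 and 148 on VC_2 and 145, 157 and 160 on VC_1. Its lots overlapped and the difference was -0.08 ± 0.07 (log2, SE, adjusted p = 0.516). Cyp27a1, a sterol 27-hydroxylase of bile acid synthesis, averaged 143 ± 12.0 on VC_2 and 128 ± 12.6 on VC_1. Cyp2d5 and Cyp2d1, of the debrisoquine hydroxylase family, gave 125 ± 24.5 on VC_2 and 121 ± 25.2 on VC_1, and 116 ± 21.8 on VC_2 and 114 ± 22.3 on VC_1 (SD, n = 3 each).

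Targets of xenobiotic receptors were present in DMSO alone. Cyp1a2, a target of the aryl hydrocarbon receptor, gave 59.2, 56.8 and 37.1 on VC_2 and 59.6, 56.0 and 36.3 on VC_1. Cyp1a1, another such target, gave 15.7, 11.9 and 3.52 on VC_2 and 10.6, 8.48 and 2.35 on VC_1, with replicate 3 far below the others on either lot. Cyp2b2, a target of the constitutive androstane receptor, gave 39.0, 43.2 and 22.8 on VC_2 and 40.2, 43.2 and 23.7 on VC_1. Cyp4a1, a target of the peroxisome proliferator receptor, held between 6.10 and 6.37 on VC_2 and between 7.04 and 7.43 on VC_1.

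Some P450 genes known from the liver in vivo read below the median of the detected P450 genes on every array. No liver was measured for comparison. Cyp2e1, the ethanol-inducible P450, gave 2.75, 1.69 and 0.372 on VC_2 and 3.35, 2.18 and 0.467 on VC_1, on either lot lowest in replicate 3. Cyp7a1, the rate-limiting enzyme of bile acid synthesis, gave 0.501, 0.415 and 0.104 on VC_2 and 0.471, 0.388 and 0.110 on VC_1. Cyp8b1, the sterol 12-hydroxylase, averaged 0.0816 ± 0.0293 on VC_2 and 0.0696 ± 0.0245 on VC_1. The 12 genes on no array were Cyp11a1, Cyp11b1, Cyp11b2 and Cyp19a1 of steroid hormone synthesis, Cyp24a1 and Cyp26a1 of vitamin D and retinoic acid breakdown, and Cyp2a3, Cyp2b12, Cyp2b15, Cyp2g1, Cyp4f18 and Cyp4x1. Across the 53 genes the order was nearly the same on both lots (Spearman's rho 0.993, across genes that share arrays and probes). Of 55 tested, 2 differed between the lots, against 17.2% of all genes tested. These were Cyp4a8 and Cyp11b3, both higher on VC_2. With the block 28 of 55 passed, against 51.5% of all genes. Cyp11b3 was dim (0.0559 ± 0.0101 on VC_2 and 0.0176 ± 0.00568 on VC_1), and was detected on VC_2 and on no VC_1 array.

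**Figure D2:**
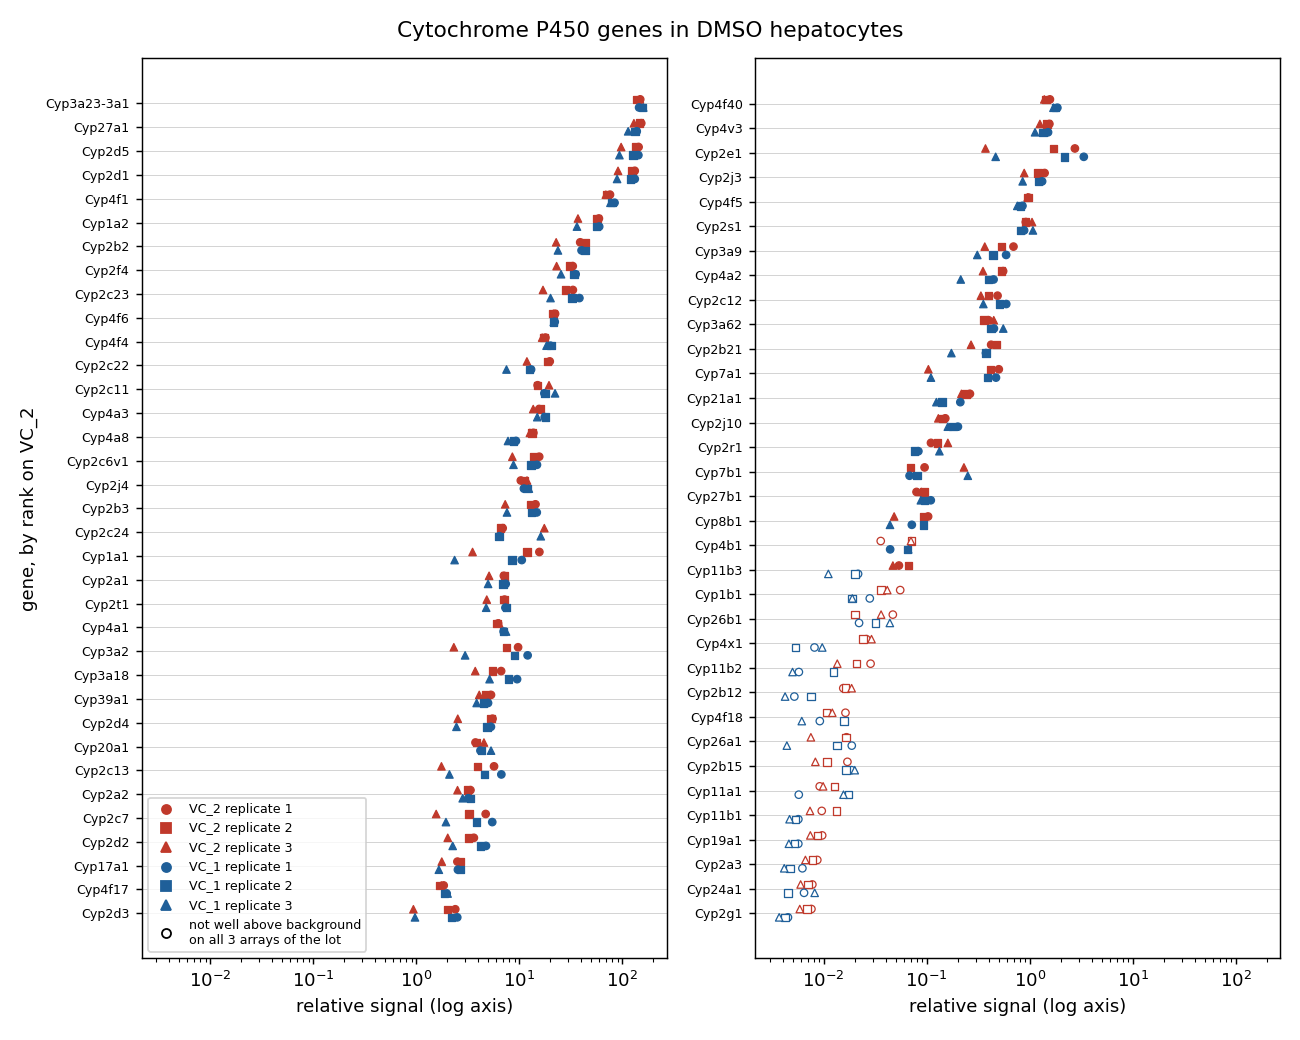
Relative signal (x axis, log scale) of the 69 cytochrome P450 genes on the 6 arrays, ordered by rank on VC_2, with VC_2 above VC_1 and hollow markers for a lot on which the gene was not well above background on all 3 arrays. The family spans from Cyp3a23-3a1 near 150 to genes at the background, and replicate 3 (triangles) lies apart for Cyp1a1, Cyp3a2, Cyp2e1 and Cyp7a1.

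Conjugating enzymes were broadly present. Of the glucuronosyltransferases 11 of 12, of the glutathione S-transferases 25 of 27 and of the sulfotransferases 9 of 13 were detected on both lots. Gstm1, a mu-class transferase, gave 268, 263 and 290 on VC_2 and 287, 269 and 299 on VC_1, so that the lots overlapped. Gstp1, the pi-class transferase known as a marker of altered rat hepatocytes, averaged 9.50 ± 1.44 on VC_2 and 10.1 ± 1.46 on VC_1. Sult1b1, which sulfates thyroid hormones and phenols, averaged 205 ± 0.688 on VC_2 and 194 ± 5.54 on VC_1. Sult1a1, the phenol sulfotransferase, averaged 248 ± 31.5 on VC_2 and 144 ± 18.4 on VC_1 and was called (0.79 ± 0.14, log2, SE, adjusted p = 0.0172).

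Ugt1a6, which glucuronidates small phenols, averaged 430 ± 32.3 on VC_2 and 265 ± 27.4 on VC_1 (0.70 ± 0.11, log2, SE, adjusted p = 0.0107). Its other probe did not share this difference, with means of 2.07 on VC_2 and 2.31 on VC_1. The genes on no array were Sult1d1, Sult1e1 (the estrogen sulfotransferase), Sult4a1, Sult6b1 and Gsta4l1. Among phase I enzymes outside the P450 family, Ephx1, the microsomal epoxide hydrolase, averaged 43.5 ± 3.50 on VC_2 and 48.6 ± 2.96 on VC_1, and Ces1c, a secreted carboxylesterase, 65.1 ± 13.4 on VC_2 and 60.7 ± 12.0 on VC_1. The list of carboxylesterases and epoxide hydrolases held 12 of 18 members on both lots and 4 on no array, and that of flavin monooxygenases and alcohol and aldehyde dehydrogenases 24 of 29 and 4.

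Some export pumps of the hepatocyte were bright, while the median over the ABC list was 1.25, 1.20 and 0.71 on VC_2 and 1.38, 1.29 and 0.84 on VC_1, below the median gene. Abcc2, the canalicular pump Mrp2 for conjugates, gave 324, 311 and 332 on VC_2 and 270, 289 and 296 on VC_1. Abcb11, the bile salt export pump, gave 59.0, 57.5 and 44.5 on VC_2 and 60.2, 57.5 and 45.5 on VC_1. Abcb1b, one of the rat P-glycoproteins, gave 87.6, 99.6 and 169 on VC_2 and 87.2, 98.3 and 167 on VC_1, with replicate 3 highest on both lots. In all, 37 of 43 ABC genes were detected on both lots and 5 on no array (Abca15, Abca17, Abcb9, Abcc12 and Abcd2).

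Among uptake carriers, Slc10a1, the sodium-dependent bile acid carrier Ntcp, gave 2.41, 2.12 and 0.971 on VC_2 and 2.51, 2.28 and 1.03 on VC_1. Slco1b2, the liver-specific organic anion carrier, averaged 0.937 ± 0.119 on VC_2 and 1.16 ± 0.117 on VC_1, and Slco1a1 0.844 ± 0.0721 on VC_2 and 1.05 ± 0.0618 on VC_1. The brightest Slco gene was Slco2a1, a prostaglandin carrier, at 33.1 ± 2.59 on VC_2 and 34.8 ± 2.88 on VC_1, and its 3 probes, all detected, spanned 0.446 to 33.1 on VC_2 and 0.444 to 34.7 on VC_1.

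The brightest Slc22 gene was Slc22a8, the organic anion carrier Oat3, with 189, 210 and 273 on VC_2 and 163, 172 and 207 on VC_1 from 1 probe. Slc22a2, Slc22a3, Slc22a14, Slc22a22 and Slc22a24 were detected on no array, and neither was Slc47a1 or Slc47a2, the extruders of organic cations. The other Slco genes on no array were Slco1a3, Slco1c1, Slco4a1, Slco4c1 and Slco6c1. Slc2a2, the liver glucose carrier, averaged 61.1 ± 11.7 on VC_2 and 60.5 ± 12.9 on VC_1, and Slc2a1, the glucose carrier of most growing cells, 9.98 ± 0.440 on VC_2 and 9.77 ± 0.267 on VC_1.

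Hepatocyte transcription factors were detected on both lots for 15 of 16 genes, and nuclear receptors of metabolism for 21 of 24. Prox1 gave 95.8, 98.0 and 93.3 on VC_2 and 111, 116 and 108 on VC_1, from 1 probe. Hnf4a, a master regulator of the hepatocyte, gave 27.2, 26.2 and 15.0 on VC_2 and 29.9, 28.4 and 16.5 on VC_1. Cebpa averaged 8.43 ± 2.37 on VC_2 and 8.76 ± 2.50 on VC_1. Of the xenobiotic receptors, Nr1i2 (pregnane X receptor) averaged 25.9 ± 7.62 on VC_2 and 22.3 ± 6.89 on VC_1, Nr1i3 (constitutive androstane receptor) 1.34 ± 0.597 on VC_2 and 1.62 ± 0.685 on VC_1, and Ahr 0.424 ± 0.0423 on VC_2 and 0.422 ± 0.0147 on VC_1. Esr1, the estrogen receptor alpha, was detected on no array. No nuclear receptor differed between the lots at the threshold without the block, against 17.2% of all genes tested. With the block 11 of 21 did, near the share of 51.5% over all genes.

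Enzymes of the urea cycle and amino acid breakdown were among the bright genes. Bhmt, the betaine homocysteine methyltransferase, averaged 352 ± 89.9 on VC_2 and 295 ± 69.6 on VC_1, and Arg1, the arginase of the urea cycle, 210 ± 63.2 on VC_2 and 187 ± 46.6 on VC_1. Of this list, which also holds gluconeogenesis, 29 of 30 members were detected on both lots. Gluconeogenic genes under hormonal control were dim. Pck1, the cytosolic phosphoenolpyruvate carboxykinase, had 0.114, 0.0822 and 0.0715 on VC_2 and 0.115, 0.0686 and 0.0843 on VC_1, and G6pc1, the catalytic subunit of glucose-6-phosphatase, 1.28, 1.05 and 0.502 on VC_2 and 1.41, 1.19 and 0.538 on VC_1.

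In glycolysis 18 of 21 genes were detected on both lots. Ldha, a subunit of lactate dehydrogenase, averaged 484 ± 87.1 on VC_2 and 437 ± 71.3 on VC_1. Genes of both liver zones were present, with 12 of 13 periportal and 10 of 13 pericentral genes detected on both lots. The pericentral genes on no array were Axin2 and Lgr5, targets of Wnt signalling, and Slc1a2.

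Sex-biased liver genes, which growth hormone is known to set in the rat, were all detected, 6 of 6 male-biased and 6 of 6 female-biased genes. Cyp2c11, a male-specific steroid hydroxylase, gave 15.1, 15.0 and 19.4 on VC_2 and 17.5, 17.8 and 22.2 on VC_1, with replicate 3 the highest of each lot. The male-biased Cyp2c13 went the other way, with 5.68, 3.90 and 1.75 on VC_2 and 6.69, 4.57 and 2.10 on VC_1, and so did Cyp3a2, with 9.73, 7.51 and 2.31 on VC_2 and 12.0, 8.95 and 2.98 on VC_1. Cyp2c12, a female-specific P450, was dim, with 0.487, 0.397 and 0.336 on VC_2 and 0.592, 0.508 and 0.355 on VC_1 (2 probes, both detected). Igf1, the growth hormone target made by the liver, averaged 88.9 ± 20.2 on VC_2 and 85.9 ± 19.6 on VC_1, and its 5 detected probes spanned 2.65 to 87.3 on VC_2 and 1.58 to 84.3 on VC_1. Of 11 genes of the growth hormone axis 3 were lower on VC_2, Stat5a, Stat5b and Igfbp3, where 5.85% of all genes tested were lower. With the block 5 of 11 passed, where 51.5% of all genes did.

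Genes tied to culture were bright beside the liver genes. Of 29 cytoskeletal and culture-adaptation genes 26 were detected on both lots. Actb, a cytoplasmic actin, gave 210, 199 and 202 on VC_2 and 210, 198 and 196 on VC_1, and the lots overlapped. Vim, vimentin of mesenchymal cells, averaged 15.7 ± 0.900 on VC_2 and 15.2 ± 0.677 on VC_1. The bile duct keratin Krt19 and Spp1 were detected on no array.

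Afp, the fetal plasma protein, had 10.1, 9.66 and 10.1 on VC_2 and 11.2, 10.5 and 10.5 on VC_1, and H19, an imprinted fetal transcript, was detected on no array. Of 24 cell cycle genes 22 were detected on both lots, at medians of 0.42, 0.56 and 1.11 on VC_2 and 0.50, 0.59 and 1.36 on VC_1, below the median gene. Pcna, the replication clamp, averaged 3.88 ± 0.235 on VC_2 and 4.61 ± 0.505 on VC_1. None of the 22 passed the test between the lots without the block, against 17.2% of all genes tested. With the block 10 of 22 passed, against 51.5% of all genes.

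Markers of other cell types were mostly absent or dim. For Kupffer cells and macrophages, 6 of 15 measured markers were detected on both lots and 7 on no array, and the absent ones were Adgre1, C1qa, C1qc, Cd163, Csf1r, Ptprc and Vsig4. Lyz2, the macrophage lysozyme, was the brightest at 8.88 ± 0.576 on VC_2 and 9.47 ± 0.615 on VC_1. Cd68, a lysosomal macrophage protein, gave 5.30, 3.69 and 0.677 on VC_2 and 4.38, 3.04 and 0.529 on VC_1. Clec4f, the lectin that defines the Kupffer cell, gave 0.0710, 0.0837 and 0.0353 on VC_2 and 0.0376, 0.0496 and 0.0309 on VC_1.

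Of 12 sinusoidal endothelial markers 4 were detected on both lots and 5 on no array, among them Lyve1 and Plvap. Vwf, which endothelial cells make, gave 9.95 ± 0.840 on VC_2 and 8.83 ± 0.840 on VC_1, and its other probe was below the limit on all 6 arrays. Of 14 stellate cell and fibroblast markers 7 were detected, led by Col1a2 at 0.807 ± 0.345 on VC_2 and 0.636 ± 0.332 on VC_1, and the vitamin A enzyme Lrat of stellate cells was on no array. Of 9 cholangiocyte markers 4 were detected, led by Epcam with 2.89, 3.18 and 4.45 on VC_2 and 3.12, 3.48 and 4.94 on VC_1.

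The lymphocyte list held 3 of 10 members on both lots, Cd4, Cd3d and Nkg7, and all were higher on VC_2. Cd4, the co-receptor of helper T cells, had 31.5, 24.4 and 30.2 on VC_2 against 8.19, 5.76 and 6.05 on VC_1 (2.12 ± 0.17, log2, SE, adjusted p = 0.00198). Its other probe was below the limit on all 6 arrays. Cd8a and Ptprc were on no array. Of 7 blood cell genes, Hba-a1 (an alpha globin) was detected at 2.80 ± 0.102 on VC_2 and 1.27 ± 0.0903 on VC_1 and was called (adjusted p = 0.00148), while Hbb, its beta partner, was on no array.

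Genes of other organs show how far a call of detection reaches. Of 24 such genes 7 were detected on both lots, among them Pomc of the pituitary at 0.863 ± 0.0559 on VC_2 and 0.922 ± 0.0911 on VC_1, Tg of the thyroid at 0.318 ± 0.0846 on VC_2 and 0.334 ± 0.0749 on VC_1 and Ins1 of the pancreas at 0.168 ± 0.0289 on VC_2 and 0.135 ± 0.0298 on VC_1. The other 4 were Aqp2, Prm1, Scgb1a1 and Tnnt2, and 13 were on no array. Signals below about 1 thus occurred for genes of organs the culture does not hold. Among others, Cyp7a1, Cyp8b1, Cyp2c12, Pck1, Ahr, Pros1, Clec4f and all stellate cell markers lay in that range on the arrays' means. So did the medians of the female-biased list (0.332 to 0.591 over the arrays) and those of the cell cycle list in replicates 1 and 2. Whether such dim signals are transcripts was not tested.

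The summed relative signal was also taken over each list by array. Over the lymphocyte list it differed by lot, with 24.9 to 32.2 on VC_2 and 6.04 to 8.49 on VC_1, most of it from 1 probe of Cd4. Over the Kupffer list it was 13.8 to 18.6 on VC_2 and 14.0 to 18.0 on VC_1, over the stellate list 1.60 to 2.33 on VC_2 and 1.42 to 2.19 on VC_1, and over the hepatocyte trio 1284 to 1645 on VC_2 and 956 to 1253 on VC_1.

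**Figure D3:**
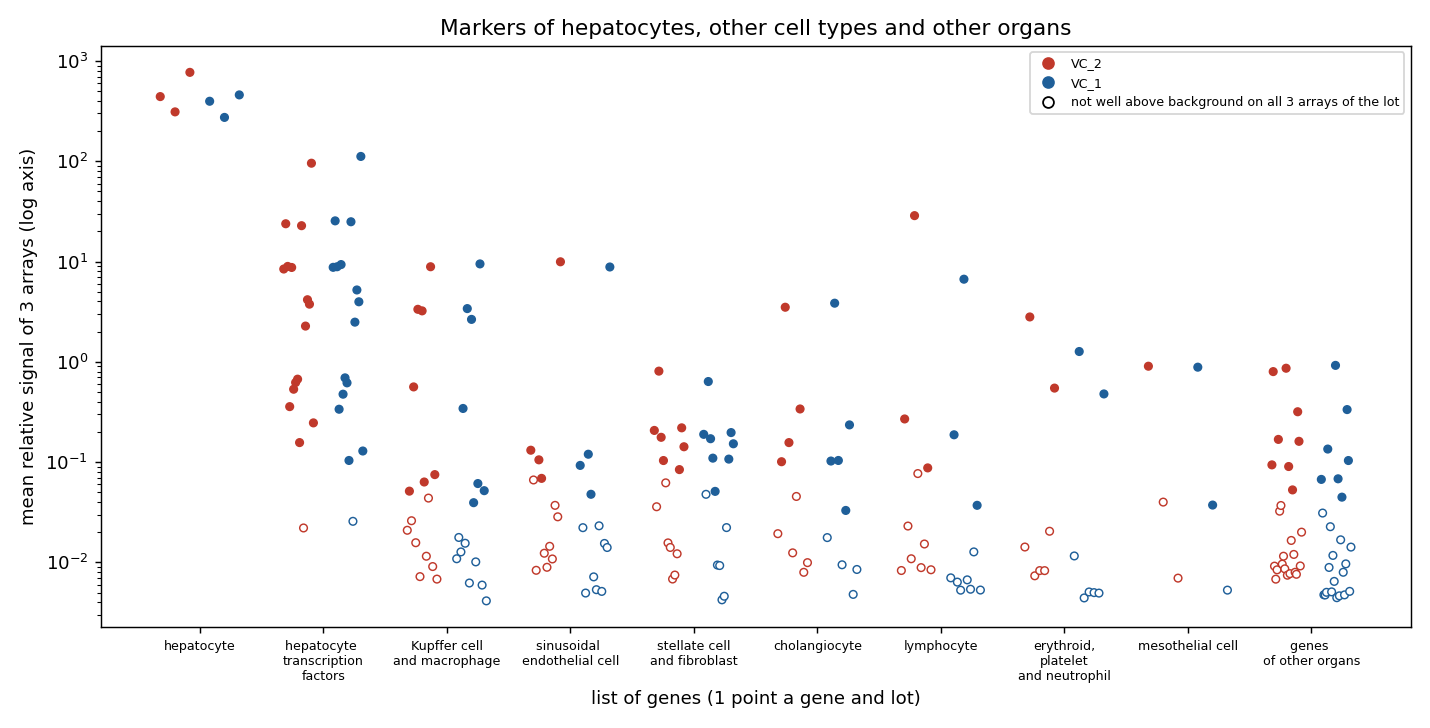
Mean relative signal of 3 arrays (y axis, log scale) for each measured gene of 10 lists, with VC_2 left of VC_1 and hollow points for genes not well above background on all 3 arrays of the lot. The hepatocyte markers lie between 274 and 771, and among the other cell types only Cd4 on VC_2 exceeds 10.

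Which of these statements depend on the lot was asked with the fit of VC_2 minus VC_1. Of 21173 genes and accessions, 3652 passed an adjusted p of 0.05, of which 2414 were higher on VC_2 (11.4% of those tested) and 1238 lower (5.85%). The split of calls was 66.1% higher, against 54.0% after quantile normalization. Of all tested, 6638 had an unadjusted p under 0.05, and for 37.4% the 3 arrays of one lot all lay on one side of the other lot. The replicate block raised the calls to 10909, of which 5236 were higher, and 3622 of the first 3652 stayed among them. Leaving out VC_1 replicate 2, VC_2 replicate 1 or VC_2 replicate 2 lowered the calls to 1443, 1582 and 1484. A difference of at least 2-fold was called for 963 higher and 39 lower genes, and 670 of these 1002 were detected on both lots. The empty corner spots, never above background, read 1.66-fold higher on VC_2 relative to the 75th percentile, and their part in the calls of dim genes was not tested.

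Ranked by the fitted difference, the 10 highest calls with separate arrays were Ckm, Nkx2-3, C3ar1, Ccl12, Cd80, Kcnk13, Foxe1, Pkib, Elovl3 and Lnc081. Each rests on 1 probe. Only C3ar1, Kcnk13 and Pkib had another, and it was detected on neither lot. Ckm, the muscle creatine kinase, averaged 0.799 ± 0.191 on VC_2 and 0.0310 ± 0.00747 on VC_1 (4.69 ± 0.25, log2, SE, adjusted p = 0.00105), where 2 of 3 arrays passed detection. Foxe1, a thyroid transcription factor, had 29.8, 29.0 and 23.2 on VC_2 against 3.00, 2.02 and 1.59 on VC_1 (3.67 ± 0.25, log2, SE, adjusted p = 0.00145), and was the only one of the 10 above 10 on a lot. Nkx2-3, C3ar1, Cd80, Kcnk13, Elovl3 and Lnc081 were not well above background on VC_1. Set against the lowest signal that passed on each array, they were at least 9.63, 5.00, 4.23, 6.89, 3.94 and 2.64-fold higher on VC_2, so their place in that order is not measured. With normexp background correction their fitted differences were 1.44, 1.09, 0.78, 1.21, 0.66 and 0.63 (log2), and all still passed the threshold. Those of Foxe1 and Pkib, detected on both lots, were 3.58 and 3.30 with normexp, against 3.67 and 3.64 without it. Those of Ckm and Ccl12 were 2.69 and 1.84, against 4.69 and 3.90.

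The 10 lower calls named by the same rule were Tox2, Serpine2, Gtf2a1l, Wdr62, Calml3, Rassf2, Tcap, Ndp, Olig3 and R3hdml. These too rest on 1 probe each, and the other probes of Tox2, Rassf2 and Ndp were above background on no array. Tox2, Serpine2, Gtf2a1l and Calml3 were not well above background on VC_2. Calml3 was at least 1.02-fold lower there, and for the other 3 the bound was under 1, so no fold is given. With normexp these 4 genes and Ndp no longer passed (adjusted p between 0.147 and 0.612). Rassf2, a Ras-association domain gene, had 1.51, 1.46 and 1.56 on VC_2 against 3.53, 3.62 and 3.49 on VC_1 (-1.23 ± 0.06, log2, SE, adjusted p = 0.00105).

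Different probes of one gene seldom shared a lot difference. Among 2238 genes with at least 2 probes detected on both lots, the difference VC_2 minus VC_1 of the dimmest and the brightest probe correlated at Pearson r = 0.117 (Spearman's rho 0.0598). For 19 of these genes the brightest probe differed by more than 1 on the log2 scale, and the dimmest did so in the same direction for 2 of them and stayed within 0.5 for 15. Actg1 was a gene whose probes agreed, at 1.16 and 1.09. The deviation of an array from its lot mean was shared far better between the same probe pairs, at r between 0.524 and 0.788 for the 6 arrays. These correlations run across genes, and the points share arrays.

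The lot difference also followed brightness. In the dimmest of 10 equal bins of probes detected on both lots its median was 0.24, in bins 6 to 8 it was -0.07, and in the brightest bin 0.02. The E1A spike-in controls were uneven as well, relative to the 75th percentile. The brightest control read 1.41-fold higher on VC_2, the next on VC_2 read 2.06-fold higher, and another bright one 0.885 times as high as on VC_1. The cytosolic ribosomal protein genes, which fill the bright end, were all detected (74 of 74). Of the 74, 18 were called, all higher on VC_2, against 11.4% of all genes tested that were called higher. With the block 54 of 74 passed, against 51.5% of all genes. Rps23 led the ribosomal genes, with 334 ± 23.0 on VC_2 and 113 ± 14.4 on VC_1 from 1 probe (1.57 ± 0.12, log2, SE, adjusted p = 0.00169). The median difference of the list was 0.21, against -0.04 over all genes with a plain symbol, and it turned to -0.07 under quantile normalization (-0.06 over all genes).

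**Figure D4:**
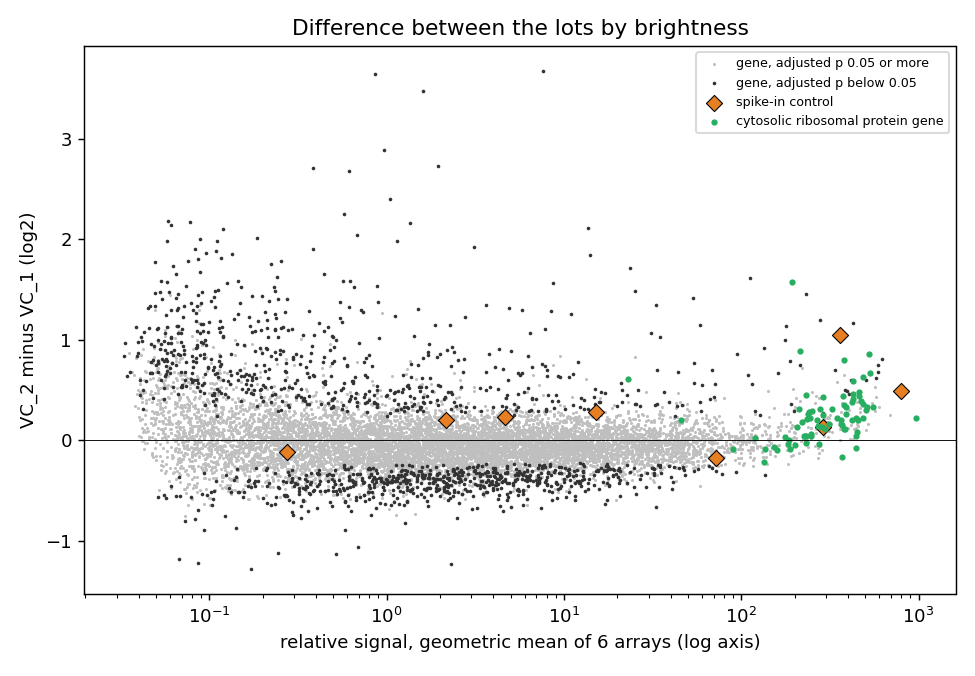
Difference VC_2 minus VC_1 (y axis, log2) against the geometric mean of the relative signal over 6 arrays (x axis, log scale) for the 10172 genes with a plain symbol detected on both lots, with called genes dark, ribosomal protein genes green and spike-in controls as diamonds. Most genes lie near 0, the dim end and the bright end lean upward, and the spike-in controls scatter from -0.18 to 1.04.

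The arrays of one lot differed from each other in the same way on both lots. The deviations from the lot mean correlated at r = 0.756 between VC_2 replicate 1 and VC_1 replicate 1, at 0.627 for the pair of replicate 2 and at 0.891 for the pair of replicate 3. Unlike numbers correlated at 0.468 for VC_2 replicate 1 with VC_1 replicate 2, and at 0.458 for VC_2 replicate 2 with VC_1 replicate 1. Replicate 3 stood furthest from its lot mean, with a mean absolute deviation of 0.177 on VC_2 and 0.183 on VC_1 (log2). With lot and replicate number in the fit, a test added after these values were seen, the number passed an adjusted p of 0.05 for 8964 of 21173 genes (42.3%, limma's F test). Among tested genes with a plain symbol, as all list members have, the share was 45.8%. Where arrays of the same number share a culture, the number stands for the culture, and only the spread it is tested against is technical error.

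Several lists of liver function had a negative median deviation in replicate 3 on both lots, and cell cycle genes a positive one. Over the 22 cell cycle genes the median deviation was -0.24, -0.19 and 0.44 on VC_2 and -0.23, -0.22 and 0.50 on VC_1, and the number passed for 20 of them, against 42.3% of all genes. Cdk1, the kinase that drives mitosis, gave 0.259, 0.317 and 1.00 on VC_2 and 0.310, 0.378 and 1.28 on VC_1 (adjusted p = 0.00331 for the number). Ccnd1, a cyclin of growing cells, gave 1.65, 1.81 and 3.44 on VC_2 and 1.84, 2.02 and 3.92 on VC_1.

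Over the P450 list the median deviation was 0.17, 0.09 and -0.31 on VC_2 and 0.19, 0.10 and -0.33 on VC_1, and the number passed for 40 of 55 genes. Adh1c, the liver alcohol dehydrogenase, gave 33.1, 25.2 and 8.85 on VC_2 and 43.5, 33.3 and 11.9 on VC_1. The number also passed for 17 of 17 lipoprotein genes, 14 of 18 coagulation genes and 20 of 29 genes of gluconeogenesis, the urea cycle and amino acid breakdown, all lists with a negative median in replicate 3. It passed for 12 of 25 glutathione S-transferases, whose median deviation in replicate 3 was 0.00 on VC_2 and 0.01 on VC_1, and for 6 of 9 Slco genes, whose median there was 0.11 on VC_2 and -0.12 on VC_1. The median deviation of the Kupffer list in replicate 3 was -0.26 on VC_2 and -0.30 on VC_1, and that of the stellate list 0.01 on VC_2 and 0.08 on VC_1. In replicate 3 the macrophage marker Cd68 was lowest on both lots. The fibroblast gene Col1a2 was highest there, at 1.20 on VC_2 and 1.02 on VC_1, while the median of its list stayed near 0. The Kupffer median rests on 6 detected markers, and the P450 median on 53 genes. The part of other cell types in the result was not tested.

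**Figure D5:**
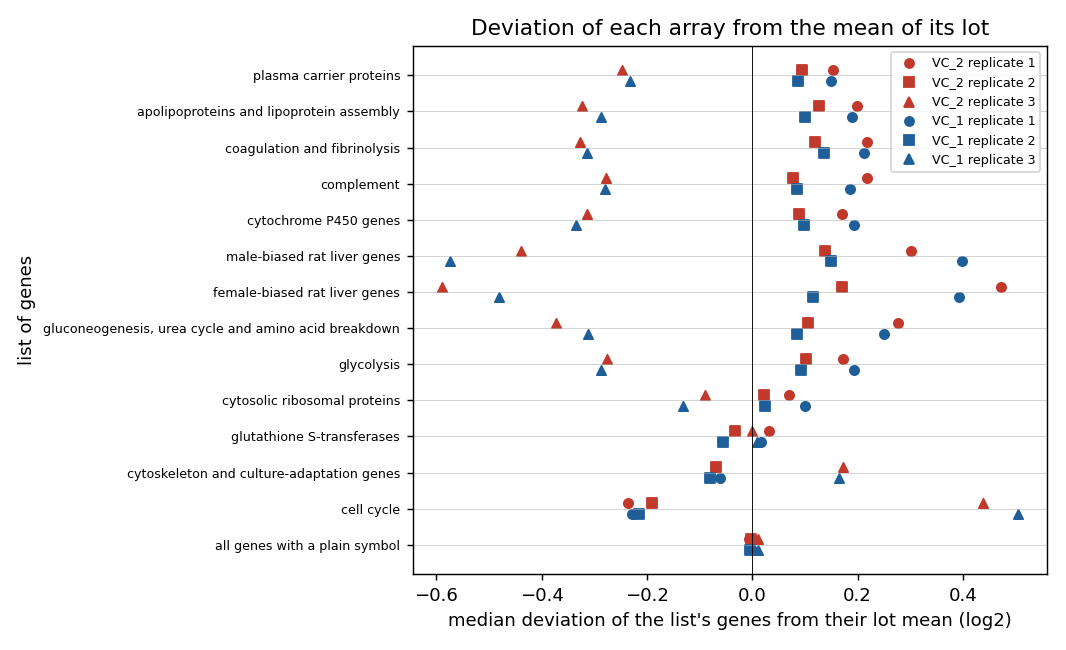
Median deviation of each list's detected genes from their lot mean (x axis, log2) for each array, with VC_2 above VC_1 in every list. Replicate 3 (triangles) lies below 0 for the first 10 lists from the top, near 0 for the glutathione S-transferases and above 0 for cytoskeletal and cell cycle genes on both lots, while all genes stay near 0.

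Presence and order of the list members were much alike on both lots, and some levels differed. Of 685 distinct members of the 39 lists, 550 were detected on both lots, 97 on no array, and 3 were detected on one lot and on no array of the other, Cyp11b3 and Aif1 (seen on VC_2) and Abcc9 (seen on VC_1). The remaining 35 passed on some arrays. Spearman's rho between the lots, across the detected members of a list, was between 0.916 for the ribosomal proteins and 1 for lists with at least 6 members. At the threshold that 17.2% of all genes passed, 4 of 14 carriers, 4 of 11 glucuronosyltransferases and 4 of 13 Slc22 genes differed in level, all higher on VC_2. With the block 12, 7 and 9 of them passed, where 51.5% of all genes did. In the lists of lipoproteins, coagulation, complement, acute phase, nuclear receptors, gluconeogenesis and the urea cycle, and the cell cycle, none passed without the block. With it, in the same order, 13 of 17, 7 of 18, 8 of 18, 9 of 16, 11 of 21, 14 of 29 and 10 of 22 passed.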

How the data were processed

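Members and gene lists were chosen with earlier results of these data known. The scanner files hold processed intensity: per the file headers, the authors read 1 Cy3 array a sample with Agilent Feature Extraction 10.7.1.1, after background subtraction and detrending, on build rn4 (no array coordinates are reported). The detection flag, in the unit other, is the one deposited in those files. The authors also deposited signal tables, linear and normalized in 2 sets, whose values on probes over 1 were a constant (1.00) times the relative signal used here (100% within 1%). They served as an alternative.

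Each array had 62976 spots (58717 of probes), of which 61.1% to 63.1% on VC_2 and 63.0% to 63.7% on VC_1 lay well above background; no probe spot was saturated. Signals well above background began at 18.4 to 20.2 intensity units on VC_2 and at 11.5 to 11.9 on VC_1. Repeated spots of 1 probe varied by a median SD of 0.047 to 0.056 (log2). The number of arrays limits the precision.

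Accessions in the files named 21109 of 45598 probes through the reference gene table (GRCr8). The other 24489 are counted and not named. Spots without an outlier flag were averaged per probe as log2 intensity, less the log2 of the array's 75th percentile. Probes with all spots flagged on an array (99) were left out. A gene was represented by its brightest probe over 6 arrays, and in the fit by its brightest probe detected on all 3 arrays of a lot. VC_2 minus VC_1 was estimated over 6 arrays by limma (version 3.58.1, R 4.3.3), Benjamini-Hochberg over all 21173 genes. The fitting procedure was tested on simulated data with known differences. Adjusted p-values are limma's with n = 3 a lot. The other tables were made with Python 3.11.15.

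The labels number the replicates 1 to 3 on both lots, and same-numbered arrays deviated together in every pair (0.756, 0.627 and 0.891). Replicates 1 and 2 also deviated together across the lots (0.468 and 0.458). The block follows the numbers, and these values cannot show that same-numbered arrays share a culture. Block values stand beside many of the results they change, but not beside all.

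Genes named are the 20 brightest of each lot, the 10 largest higher and lower calls with separate arrays, up to 8 bright and up to 6 undetected members of each list, and any member of the drug enzyme, transporter and marker lists. Ahr, Cdk1, G6pc1, Nr1i3, Pck1, Pros1, Rps23, Selenop and Vim lie outside this rule and were chosen after their values were seen. The promoter table held 27457 promoters. Some genes of the lists are not reported here.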

Additional observations from a re-analysis of the deposited data

Results flagged for a closer look

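Control probes outside the main measurement gave signal. Of 96 probes for ERCC control RNAs, 3 lay well above background on all 3 VC_2 arrays and 3 on all 3 VC_1 arrays, and these were the same 3 probes. The brightest had a median intensity of 186 on VC_2 and 53.7 on VC_1. Empty corner spots never passed on these arrays (0%). The labels do not name an ERCC mix, and the source of the signal was not tested.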

How the results depend on the processing

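The 19561 genes and accessions detected on both lots became 20309 when 2 of 3 arrays sufficed, 19550 by the brightest probe, 18563 when every probe had to pass (chosen after seeing the data), and 19595 to 19847 without 1 array. The 91 shared genes among the 100 brightest were 90 with normexp (on median spot intensity, since the mean is not a column used here), 91 in the deposited tables and 87 by the median probe, and 90 to 92 without 1 array. With 2 of 3 arrays 558 list members were detected on both lots, against 550.

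The 3652 calls of VC_2 minus VC_1 became 10909 with the replicate block and 14183 with no filter on dim probes (39429 tested, 12825 higher), and 1443 to 2810 without 1 array. Settings chosen after seeing the data gave 4455 to 6860 with the block and 1 replicate number left out of both lots, 11173 with quantile normalization and the block, and 12148 with normexp and the block. The calls stayed within 1.5 times with normexp (3276), quantile normalization (3968), another 75th percentile (3600, 74.5% higher), all 18 arrays (4656) and the median probe (3545). Quantile normalization turned the differences of Alb to -0.18 and of Apoa1 to -0.07 (-0.066), without and with the block. Over 23 named genes and 414 recomputed values, 365 kept direction and side of the threshold, 41 fell short, 4 passed and 4 reversed; the cause was not tested. Arrays near the background limit the dim genes: the floor of detection differed between the lots.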
